A study of Homo sapiens with 29 samples.

Results

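The S100 genes of a human melanoma line were followed through on-drug and off-drug phases of treatment with a BRAF inhibitor. The 10 genes S100A1, S100A2, S100A3, S100A4, S100A6, S100A10, S100A11, S100A13, S100A16 and S100B were taken by symbol from 60675 genes of a table of read counts, and each symbol matched 1 row. All 10 passed the filter on low counts, which left 20494 genes for testing. Polyadenylated RNA was sequenced in 29 libraries of WM239A, a metastatic melanoma cell line. The vector group held WM239A cells labelled as vector, and every other group held WM239A cells that overexpressed BRAF-V600E, the constitutively active form of the BRAF kinase. Drug was LGX818 (encorafenib, a BRAF kinase inhibitor) at 500 nM. Vector cells and untreated BRAF-V600E cells had no drug, 1 group had 20 hours of it, and the week 1 group had 7 days. In the continuous arm drug went on to 14, 21 and 28 days, called weeks 2, 3 and 4. In the intermittent arm 7 days on drug were followed by 7 days in DMSO, the solvent (week 2 off), 7 further days on drug (week 3 on) and a second 7 days in DMSO (week 4 off). Each of the 10 groups had 3 libraries, except week 4 of the continuous arm with 2. The promoter of the BRAF-V600E transgene and whether the cells were a clone are not given in the sources used here. The labels do not say that replicates came from separate cultures, so p-values measure the spread between these libraries, which may be technical.

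S100 proteins are small calcium sensors with a pair of EF-hand motifs, and most of them act as dimers that bind target proteins once calcium is bound. S100A10 is the exception that has lost calcium binding and sits in a tetramer with annexin A2. Most S100 genes lie side by side in the epidermal differentiation complex of human chromosome 1, while S100B lies on chromosome 21. In melanoma S100B is the family member used as a tissue and serum marker.

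Libraries held 22934039 to 35804978 counts, with scaling factors (TMM, trimmed mean of M values) between 0.916 and 1.049. Levels are CPM, the counts scaled to a common library total with these factors, and a gene was called changed at an adjusted p under 0.05 in edgeR's quasi-likelihood test across all tested genes. BRAF stood at 40.2 CPM in vector cells and 895 CPM in untreated BRAF-V600E cells. It stood at 3232 CPM at week 2 off and 3404 CPM at week 4 off, and at means of 700 to 1082 CPM in the groups on drug. The off-drug groups thus also differed from untreated cells in their BRAF level, whose part in the S100 differences was not tested. DUSP6, a feedback target of the pathway that BRAF drives, stood at 421 CPM without drug, 11.004 CPM at 20 hours, 63.9 CPM at week 1, 658 CPM at week 2 off, 109 CPM at week 3 on and 613 CPM at week 4 off. All 8 melanocyte lineage markers were detected in every group. Their summed level was highest at 20 hours (8238 to 8368 CPM) and lowest at week 2 of continuous drug (254 to 272 CPM). Each of the 8 had its highest mean at 20 hours, but they did not share a lowest group. MITF was lowest at week 1 (11.4 CPM, against 349 CPM in untreated cells) and PMEL at week 2 of continuous drug (2.83 CPM). SOX10 was lowest at week 4 of continuous drug (129 CPM) and TYRP1 in untreated cells (0.169 CPM). The part of these markers in the S100 changes was not tested. The week 3 intermittent libraries are named as off drug in the column headers but as on drug in the labels, and the labels were followed. The third library of week 2 continuous and the first of week 3 on stood apart from both others of their group. Without these 2 libraries, S100A11 was no longer called between week 3 on and week 3 continuous (log2 difference 0.20, adjusted p = 0.0829, against 0.31 and 0.0345 with all libraries). S100A4 was likewise no longer called between week 4 off and week 3 on (log2 change -0.75, adjusted p = 0.0597, against -0.85 and 0.0167). S100A11 became called at week 2 continuous, lower than at week 1 and lower than at week 2 off, as given with those comparisons. In bulk RNA, fewer cells of a type and less RNA per cell cannot be told apart.

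The 10 genes spanned a wide range of levels and did not share a single pattern. Per kilobase of exon in untreated BRAF-V600E cells, S100A11 stood highest at 206 CPM, ahead of S100A6 at 146, S100B at 114 and S100A10 at 69.5 CPM. S100A4 was lowest at 0.275 CPM per kilobase. The exon length joins all annotated exons of a gene (680 bases for S100A11, 1448 for S100B), which need not be the length of its mRNA. Without that division S100B stood highest, at 165 CPM against 142 for S100A6 and 140 for S100A11. Of the 10 genes, 6 had their highest group mean off drug in the intermittent arm (S100A1, S100A2, S100A3, S100A6, S100A13 and S100A16). S100A4, S100A10 and S100A11 had it at week 3 on, and S100B in vector cells. The share of all tested genes with their highest group mean off drug was not computed, so the count of 6 does not set the S100 genes apart. The ratio of the highest to the lowest group mean was 75.9 for S100A1, 51.5 for S100A2 and 2.89 for S100B, which varied least.

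**Figure D1:**
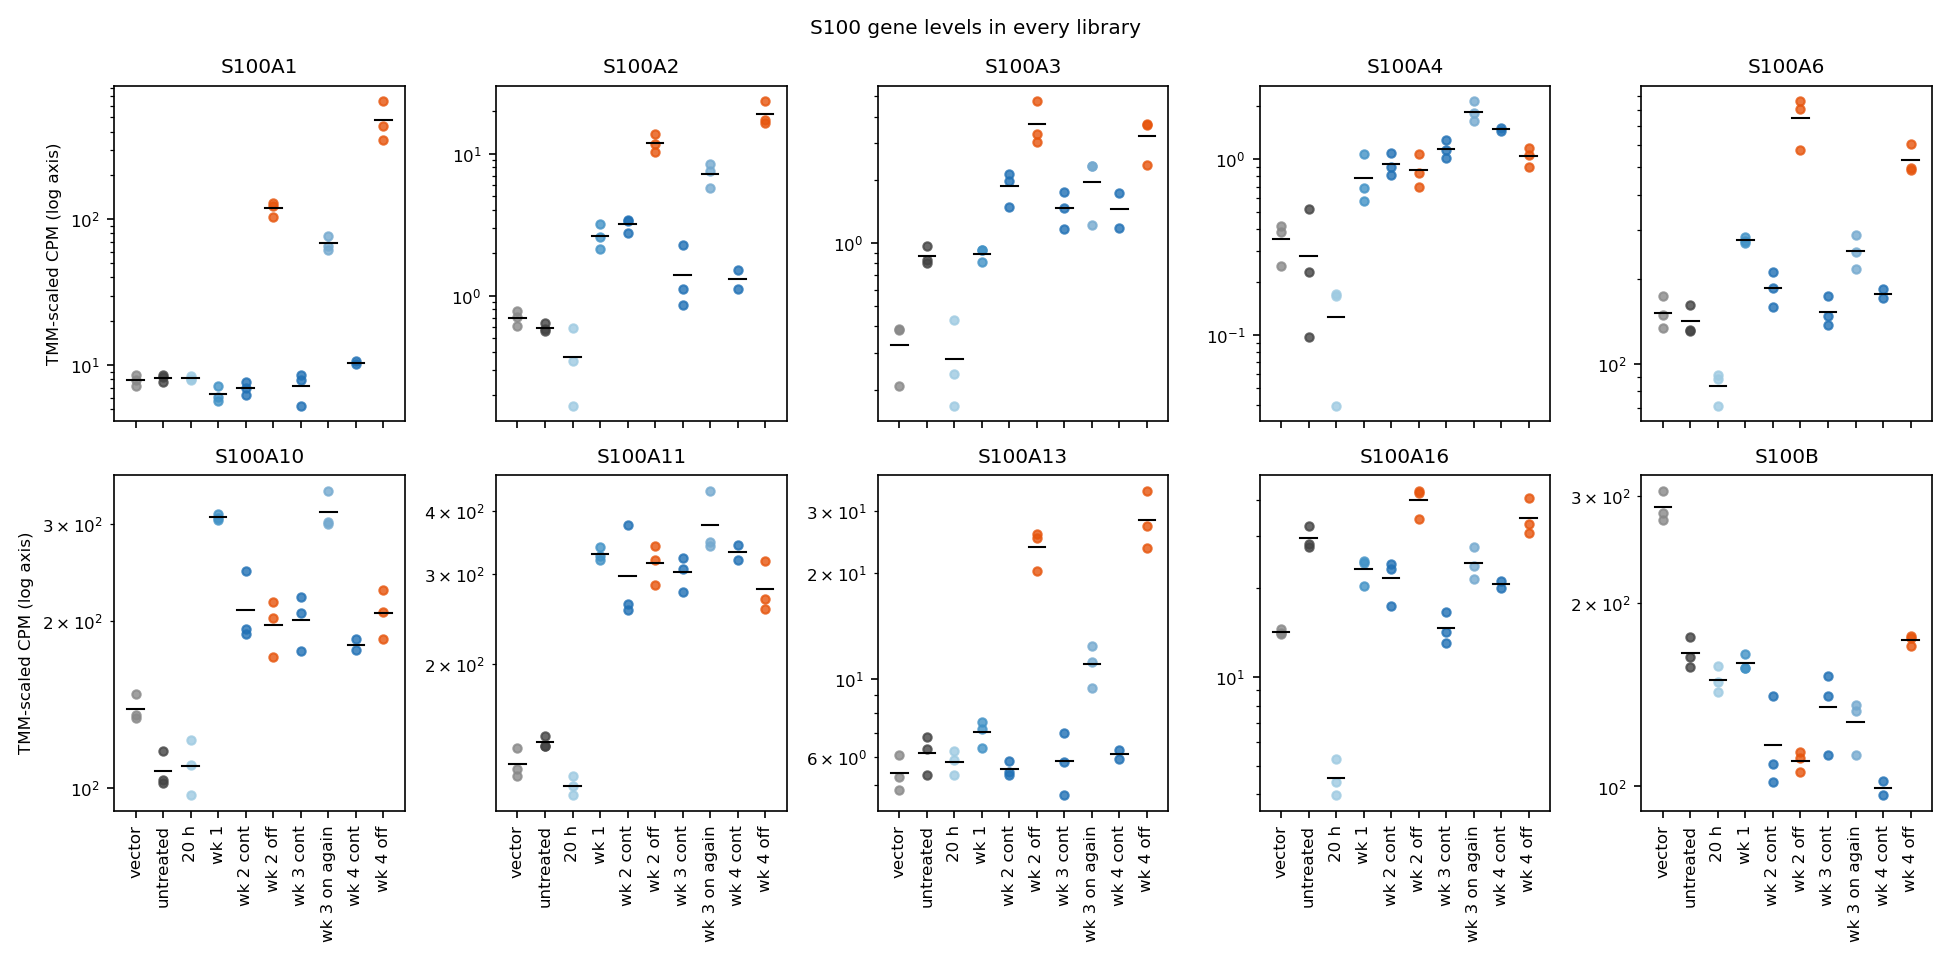
Level of each S100 gene in every library (points, TMM-scaled CPM on a log axis) with the mean of each group (line), for the 10 groups in order of treatment. Orange points are off-drug groups of the intermittent arm, blue points are groups on drug and grey points are groups without any drug. S100A1 stood at 5.26 to 10.6 CPM in every group outside the intermittent arm and at 62.0 to 645 CPM within it.

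Added up per kilobase of exon, the 10 genes came to 560 ± 37.2 CPM in untreated cells (SD, n = 3) and to 439 ± 26.7 CPM at 20 hours. The sum was 1099 ± 26.3 CPM at week 1, 1523 ± 224 CPM at week 2 off and 1421 ± 183 CPM at week 4 off. S100A11 made up 43.9% of the sum at week 1, and S100A6 made up 25.9%. At week 2 off S100A6 made up 50.2% and S100A11 30.7%, so the order of these 2 genes was the reverse of that at week 1. S100A1 rose from 0.189% of the sum at week 1 to 2.58% at week 2 off and 10.956% at week 4 off. The sums and shares depend on the exon lengths used, 3030 bases for S100A1 and 680 for S100A11.

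**Figure D2:**
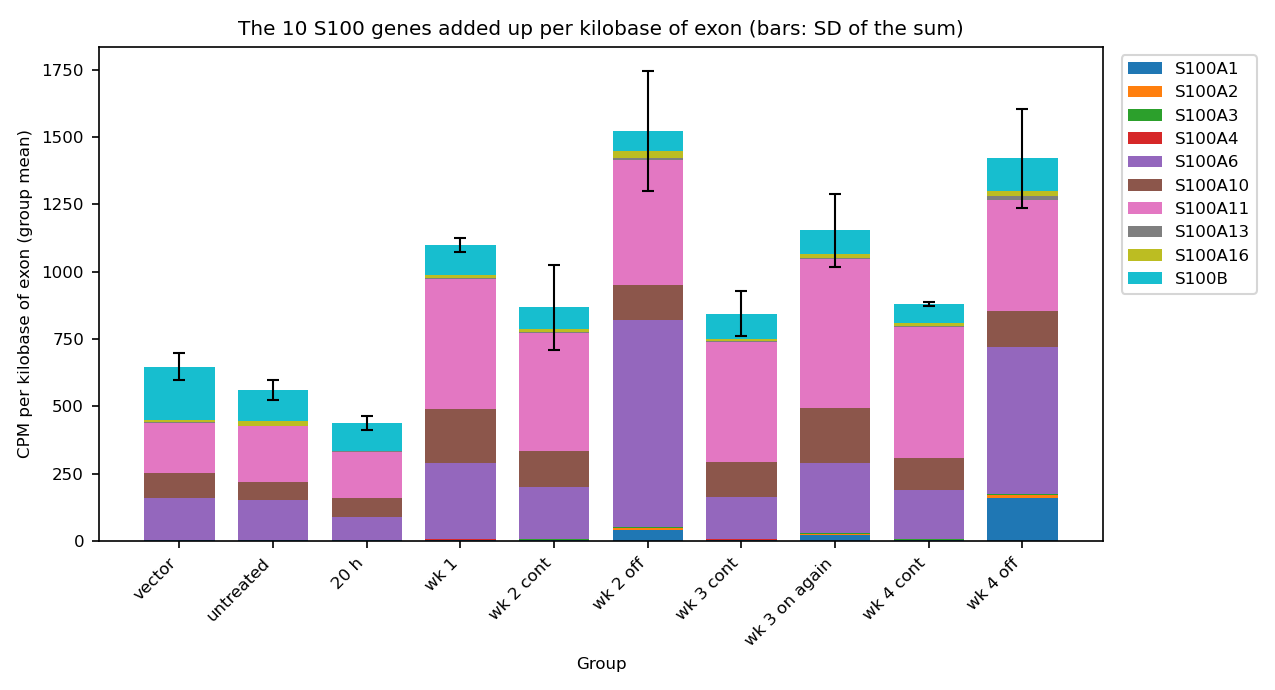
Summed level of the 10 S100 genes in CPM per kilobase of exon (bar height, group means) in each group, coloured by gene, with the SD of the sum as error bars (2 libraries for week 4 continuous, 3 for the others). The S100A6 segment is largest at week 2 off (770 CPM per kilobase) and the S100A1 segment is visible only in the intermittent arm.

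BRAF-V600E overexpression without drug raised 2 of the 10 genes and lowered 2, where 7.04% of all tested genes were called higher and 9.92% lower. S100A3, a cysteine-rich member best known from hair cuticle, stood at 0.384, 0.389 and 0.209 CPM in vector cells and at 0.800, 0.973 and 0.833 CPM in untreated BRAF-V600E cells. Its groups did not overlap, and it was higher by 1.37 ± 0.37 on the log2 scale (SE, n = 3 per group, adjusted p = 0.00844). S100A16, a member linked to fat cell differentiation, stood at 14.5, 14.0 and 14.2 CPM in vector cells. In untreated BRAF-V600E cells its 3 libraries stood at 28.4, 32.5 and 27.7 CPM, all above every vector library (log2 difference 1.06 ± 0.13, adjusted p = 2.46e-07). S100B stood at 306, 281 and 274 CPM in vector cells and lower, at 157, 176 and 163 CPM, in BRAF-V600E cells (log2 difference -0.79 ± 0.10, adjusted p = 3.37e-07). S100A10 was also lower, from a mean of 139 to 107 CPM (log2 difference -0.37 ± 0.10, adjusted p = 0.011). That call for S100A10 was lost without the first vector library (adjusted p = 0.0749) and without the first or the third untreated library (0.0545 and 0.055). The median log2 difference was -0.02 over the 10 genes and 0.00 over all tested genes.

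After 20 hours of drug 4 of the 10 genes fell and none rose, where 25.2% of all tested genes were called lower and 28.4% higher. S100A16 fell most: its libraries went from 28.4, 32.5 and 27.7 CPM to 5.27, 3.96 and 4.39 CPM. The 2 groups were far apart, with a log2 change of -2.70 ± 0.15 (adjusted p = 4.48e-16). S100A3 fell to 0.167, 0.431 and 0.237 CPM, below every untreated library (log2 change -1.64 ± 0.40, adjusted p = 0.00081), on 4 to 10 counts per library. S100A6, or calcyclin, binds the ubiquitin ligase adaptor CACYBP. It went from 132, 163 and 131 CPM to 91.7, 88.8 and 71.1 CPM (log2 change -0.76 ± 0.14, adjusted p = 2.24e-05). S100A11 fell by 0.28 ± 0.11 (adjusted p = 0.0343), a call that was lost without the second untreated library or the first or the third library of 20 hours (adjusted p = 0.0525, 0.0697 and 0.0733). S100A1, S100A10, S100A13 and S100B were not called, with 95% intervals of the log2 change of -0.37 to 0.34, -0.17 to 0.24, -0.40 to 0.23 and -0.34 to 0.05. S100A2 and S100A4 were not called either, at 4 to 18 and 1 to 13 counts per library in these groups, where a moderate change was not detectable. S100A4 was called lower without the second untreated library (log2 change -1.57, adjusted p = 0.0149, against -1.10 with it). The share of mitochondrial counts was 17.6% to 20.7% at 20 hours and 14.9% to 16.4% in untreated cells, and its part in these changes was not tested. The median log2 change was -0.48 over the 10 genes and 0.06 over all tested genes.

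By week 1 on drug 5 of the 10 genes stood above untreated cells and 1 below, where 27.5% of all tested genes were called higher and 26.7% lower. S100A10, the annexin A2 partner, went from 102, 117 and 103 CPM to 312, 307 and 305 CPM. Its log2 change was 1.52 ± 0.11 (adjusted p = 1.33e-13), with no overlap between the groups. S100A11, which binds annexin A1, went from 138, 144 and 138 CPM to 319.8, 339 and 326 CPM (log2 change 1.23 ± 0.11, adjusted p = 8.19e-11). S100A2, an epithelial member that can bind p53, went from 0.560, 0.584 and 0.644 CPM to 2.12, 3.20 and 2.57 CPM (log2 change 2.15 ± 0.31, adjusted p = 5.94e-07). S100A4, known as a metastasis-associated member that binds the heavy chain of non-muscle myosin IIA, rose by 1.53 ± 0.39 (adjusted p = 0.00127) at levels under 1.1 CPM. The untreated libraries held 13, 3 and 6 counts of S100A4, and without the first of them the log2 change was 2.31. The same library moved S100A4 against untreated cells at week 2 off (from 1.67 to 2.44 without it) and at week 4 of continuous drug (from 2.43 to 3.18). S100A6 rose by 0.96 ± 0.14 (adjusted p = 4.67e-07). The gene called lower was S100A16, at -0.35 ± 0.12 (adjusted p = 0.0179), and the call was lost without the second untreated library or the third of week 1 (adjusted p = 0.112 and 0.131). The share of mitochondrial counts was 9.43% to 11.1% at week 1 against 14.9% to 16.4% in untreated cells. The 8 fibroblast markers summed to 254 to 265 CPM against 3.18 to 3.63 CPM, with THY1 at 0 at week 1. Most of the week 1 sum was COL1A1 (mean 224 against 0.778 CPM), and DCN and THY1 had lower means at week 1. The part of either in these changes was not tested. Against the 20-hour group, week 1 had 7 of the 10 genes higher and none lower, where 28.6% of all tested genes were called higher and 29.1% lower. The comparisons of 20 hours and of week 1 share the untreated libraries, so S100A16 is given with all 3 means: 29.5 CPM untreated, 4.54 CPM at 20 hours and 23.2 CPM at week 1.

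Under continuous drug, members moved in both directions after week 1. At week 2 of continuous drug 1 member was higher and 3 were lower than at week 1, where 29.5% of all tested genes were called in either direction. S100A3 was the one that was higher, at 1.48, 1.96 and 2.13 CPM against 0.809, 0.923 and 0.921 CPM at week 1 (log2 change 1.07 ± 0.28, adjusted p = 0.00431). S100A6, S100A10 and S100B were lower by log2 changes of -0.57, -0.56 and -0.44. S100A11 was not called with all libraries (log2 change -0.14, adjusted p = 0.361), but was called lower without the third week 2 continuous library (log2 change -0.36, adjusted p = 0.00522). S100A13, at -0.35 (adjusted p = 0.0943), was called with the replicate number as a block (adjusted p = 0.0308). At week 4 of continuous drug 2 members stood above week 1 and 4 below, where 21.1% and 19.9% of all tested genes did. S100A1 and S100A4 were higher by log2 changes of 0.71 and 0.90, and S100A2, S100A6, S100A10 and S100B were lower by -1.01, -0.63, -0.76 and -0.68. The S100A4 call did not hold without either week 4 library or without the first or the third library of week 1 (adjusted p between 0.098 and 0.128), and the S100A2 call was lost without the second week 4 library (adjusted p = 0.105). Against untreated cells, week 4 of continuous drug had 4 members higher and 2 lower, where 29.3% and 26.0% of all tested genes were called. The largest of these was S100A4, at 1.45 and 1.51 CPM against 0.520, 0.0973 and 0.227 CPM (log2 difference 2.43 ± 0.39, adjusted p = 3.38e-06), on 3 to 13 counts per untreated library. The S100A2 call in this comparison was lost without the first week 4 library (log2 difference 0.90, adjusted p = 0.125, against 1.14 with both). S100B was lowest of all groups here, at 102 and 96.7 CPM.

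The first withdrawal of drug had 6 of the 10 genes higher and 2 lower than week 1, where 27.7% and 26.8% of all tested genes were called. S100A1, a member best known for calcium handling in heart and skeletal muscle, changed most. It stood at 5.67, 7.21 and 6.05 CPM at week 1 and at 129.8, 123 and 104 CPM after 7 days without drug. Every off-drug library lay above every week 1 library, and the log2 change was 4.23 ± 0.17 (18.7-fold, adjusted p = 4.03e-19). S100A13, which takes part in the non-classical export of FGF1, went from 7.55, 7.18 and 6.35 CPM to 25.0, 25.8 and 20.2 CPM (log2 change 1.75 ± 0.14, adjusted p = 7.79e-12). S100A6 went from 273, 284 and 271 CPM to 859, 807 and 576 CPM (log2 change 1.44 ± 0.14, adjusted p = 2.06e-10). For each of these 3 genes the lowest off-drug library lay above the highest week 1 library. S100A2 rose by 2.16 ± 0.22 (adjusted p = 8.33e-10), S100A3 by 2.04 ± 0.27 (adjusted p = 1.42e-07) and S100A16 by 0.78 ± 0.12 (adjusted p = 3.28e-06). The genes that fell were S100A10, from 312, 307 and 305 CPM to 217, 202 and 172 CPM (log2 change -0.64 ± 0.10, adjusted p = 3.90e-06), and S100B, from 156, 165 and 156 CPM to 114, 112 and 106 CPM (log2 change -0.53 ± 0.10, adjusted p = 3.63e-05). S100A4 and S100A11 were not called, with 95% intervals of the log2 change of -0.50 to 0.77 and -0.27 to 0.16. The summed fibroblast markers stood at 254 to 265 CPM at week 1 and at 30.3 to 33.1 CPM at week 2 off. Most of the week 1 sum was COL1A1, whose mean went from 224 to 4.43 CPM. COL1A2, COL3A1 and LUM were also lower, while PDGFRB (3.43 to 15.3 CPM), PDGFRA (4.09 to 7.45 CPM), THY1 and DCN were higher. The part of these markers in the S100 changes was not tested. The median log2 change was 1.11 over the 10 genes and -0.01 over all tested genes.

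Compared with cells kept on drug to the same week, week 2 off had 6 members higher and none lower, where 27.3% of all tested genes were called higher and 27.9% lower. S100A1 stood at 6.22, 7.62 and 6.99 CPM in the continuous arm (log2 difference 4.09 ± 0.17, adjusted p = 9.31e-19). The other 5 were S100A13 at 2.10, S100A6 at 2.004, S100A2 at 1.90, S100A3 at 0.97 and S100A16 at 0.88. S100A10, S100A11, S100A4 and S100B were not called, with log2 differences between -0.10 and 0.09. Without the third week 2 continuous library S100A11 was called higher at week 2 off (log2 difference 0.27, adjusted p = 0.019, against 0.09 and 0.529 with it). Against untreated cells, which also had no drug at the time of sampling, week 2 off had 9 members higher and 1 lower, where 31.2% and 28.8% of all tested genes were called. S100A2 differed most, at 13.7, 11.7 and 10.3 CPM against 0.560, 0.584 and 0.644 CPM (log2 difference 4.31 ± 0.28, adjusted p = 1.82e-14). S100A1 differed by 3.85 ± 0.17 (adjusted p = 2.03e-18). S100A16 differed least among those higher, by 0.43 ± 0.12 (adjusted p = 0.00329), and lost its call without the second week 2 off library (adjusted p = 0.0526). S100B was the member that was lower (log2 difference -0.59 ± 0.10, adjusted p = 7.07e-06).

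**Figure D3:**
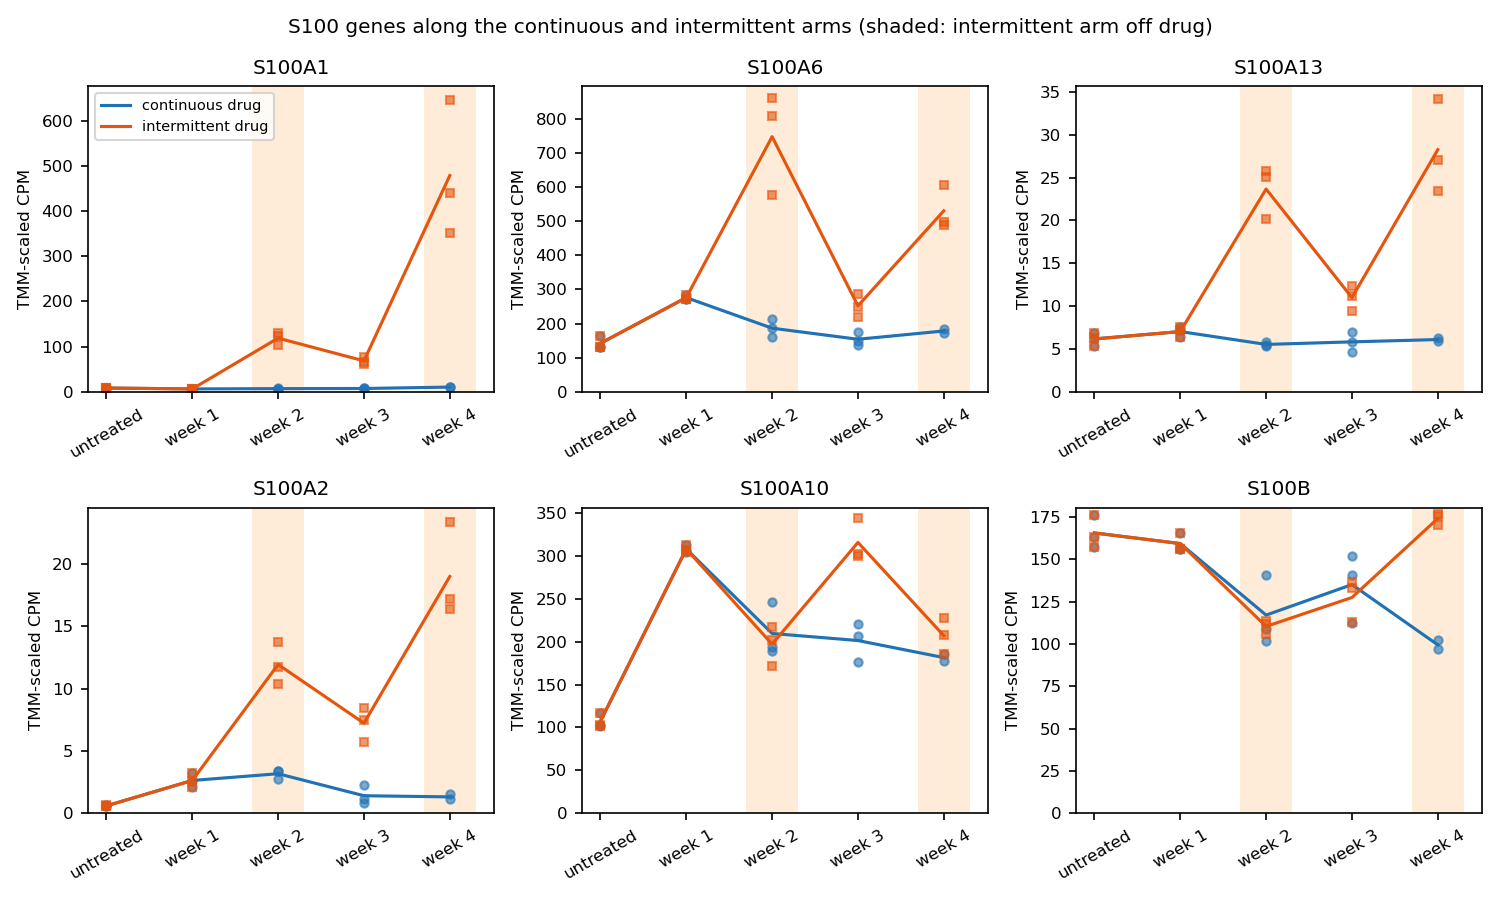
Levels of S100A1, S100A6, S100A13, S100A2, S100A10 and S100B (TMM-scaled CPM, linear axis from 0) along the continuous arm (blue circles) and the intermittent arm (orange squares), with lines through group means and the untreated and week 1 groups shared by both. Shading marks the 2 weeks when the intermittent arm was off drug, where S100A1, S100A6, S100A13 and S100A2 stand above the continuous arm in every library.

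Stretches of DNA before RefSeq transcript starts are shown for genes that rose at the first withdrawal, so that they can be compared. S100A6 also rose, but its window lies wholly inside annotated exons and is not shown. RefSeq (GRCh38.p14) gave 13 windows of 250 bases before a transcript start for 9 of the 10 genes. S100B was not among them. Shown 5′ to 3′ are the parts outside annotated exons (GENCODE 29) for S100A1 (chr1:153628249-153628383, plus strand), S100A2 (chr1:153565866-153566094, minus strand), S100A3 (chr1:153549373-153549508, minus strand), S100A13 (chr1:153634398-153634611, minus strand) and S100A16 (chr1:153613146-153613387, minus strand). The S100A1 and S100A2 stretches lie inside the spans that GENCODE gives these genes (chr1:153627926-153632039 and chr1:153561108-153567890). The S100A1 stretch also lies inside the span of S100A13 (chr1:153618787-153631360). The S100A3 stretch lies inside the span of S100A4 (chr1:153543613-153550136). Whether the stretches lie inside spans of genes outside the S100 family was not looked up. Capitals mark matches to the motifs searched, on either strand.
S100A1: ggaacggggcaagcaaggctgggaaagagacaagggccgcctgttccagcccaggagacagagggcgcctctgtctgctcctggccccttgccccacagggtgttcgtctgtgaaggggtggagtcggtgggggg
S100A2: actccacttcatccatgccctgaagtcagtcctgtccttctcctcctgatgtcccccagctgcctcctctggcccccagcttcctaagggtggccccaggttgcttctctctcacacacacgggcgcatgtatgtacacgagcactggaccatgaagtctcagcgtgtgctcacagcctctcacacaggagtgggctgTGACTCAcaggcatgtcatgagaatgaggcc
S100A3: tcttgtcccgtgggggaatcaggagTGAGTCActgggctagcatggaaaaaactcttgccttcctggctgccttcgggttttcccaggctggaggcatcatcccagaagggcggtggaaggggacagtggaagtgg
S100A13: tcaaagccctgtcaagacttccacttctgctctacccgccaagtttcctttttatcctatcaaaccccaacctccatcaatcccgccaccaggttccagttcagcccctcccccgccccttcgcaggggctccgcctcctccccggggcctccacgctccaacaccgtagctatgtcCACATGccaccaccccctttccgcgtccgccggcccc
S100A16: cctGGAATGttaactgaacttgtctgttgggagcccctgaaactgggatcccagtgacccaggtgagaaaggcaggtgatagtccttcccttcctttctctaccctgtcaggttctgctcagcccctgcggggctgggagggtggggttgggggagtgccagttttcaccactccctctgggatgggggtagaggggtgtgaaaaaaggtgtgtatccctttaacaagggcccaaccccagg

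Of the 5 motifs searched on both strands, AP-1 (TGANTCA) matched the first of 2 S100A2 windows at 52 bases before the start. It matched the S100A3 window at 225 bases. Among all 35116 RefSeq windows of that length 6.57% hold an AP-1 match. The E-box of the melanocyte factor MITF (CATGTG) matched the first of 3 S100A13 windows at 73 bases before the start. It also matched the second of 2 S100A16 windows at 231 bases, and 9.42% of all windows hold it. That S100A13 window (chr1:153634362-153634611) lies outside the GENCODE span of S100A13, and its exon bases belong to another gene, AL162258.2. The TEAD motif (CATTCC) matched the first S100A16 window at 247 bases (11.9% of all windows). The ETS motif (CCGGAA) matched S100A6 at 178 bases, inside an annotated exon (14.5%). The E-box CACGTG had no match in the 13 windows (6.34% of all windows), and none of the 5 motifs matched the S100A1 window. A match is a description of the letters in these windows only.

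Position was the next feature that the members could share. On GRCh38, 9 of the 10 genes lie within 1.65 Mb of chromosome 1, between 151982915 and 153632039. S100B lies at chr21:46598962-46605208. Within the span, S100A10 and S100A11 lie at one end and the other 7 near the opposite end. The exons of S100A1 (chr1:153627926-153632039, plus strand) share 235 bases with S100A13 (chr1:153618787-153631360, minus strand), which is 7.76% of the S100A1 exon length and 10.6% of that of S100A13. S100A1 exons also share 320 bases with the antisense gene AL162258.2, whose mean went from 0.344 CPM at week 1 to 1.91 CPM at week 2 off and 5.16 CPM at week 4 off. Whether strand was used in counting is not given in the sources used here, so reads from these overlaps cannot be told apart by gene if it was not. S100A13 exons also share 536 bases, 24.2% of their length, with AL162258.1 on the same strand, where strand cannot tell the reads apart. S100A13 had 113 counts per 100 S100A1 counts at week 1, 19.9 at week 2 off, 16.1 at week 3 on and 6.05 at week 4 off, so the 2 genes did not rise in a constant ratio.

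Other protein-coding genes within 500 kb of the span numbered 73, of which 43 were tested. Among these 43, 14 passed the count filter through off-drug libraries alone and 3 more had 3 counts or fewer in the lower group. Of the remaining 26, 11 were higher, 6 lower and 9 not called at week 2 off against week 1, with 54.5% of all tested genes called in either direction. LCE1F, a gene of the cornified envelope, the protein shell of skin cells, passed the filter through off-drug libraries alone. It had 0 counts at week 1 and stood at 49.4 CPM at week 2 off and 7.63 CPM at week 4 off. SPRR2D, another gene of that envelope, went from 1.06 CPM at week 1 to 64.5 CPM at week 2 off (log2 change 5.92). FLG, which encodes filaggrin, stood at 8.33 CPM at week 1 and at 0.886 CPM at week 2 off (log2 change -3.23 ± 0.38, adjusted p = 1.47e-08). NPR1, a natriuretic peptide receptor gene, stood at 25.4 CPM in untreated cells, 1.61 CPM at 20 hours, 0.292 CPM at week 1 and 29.2 CPM at week 4 off.

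**Figure D4:**
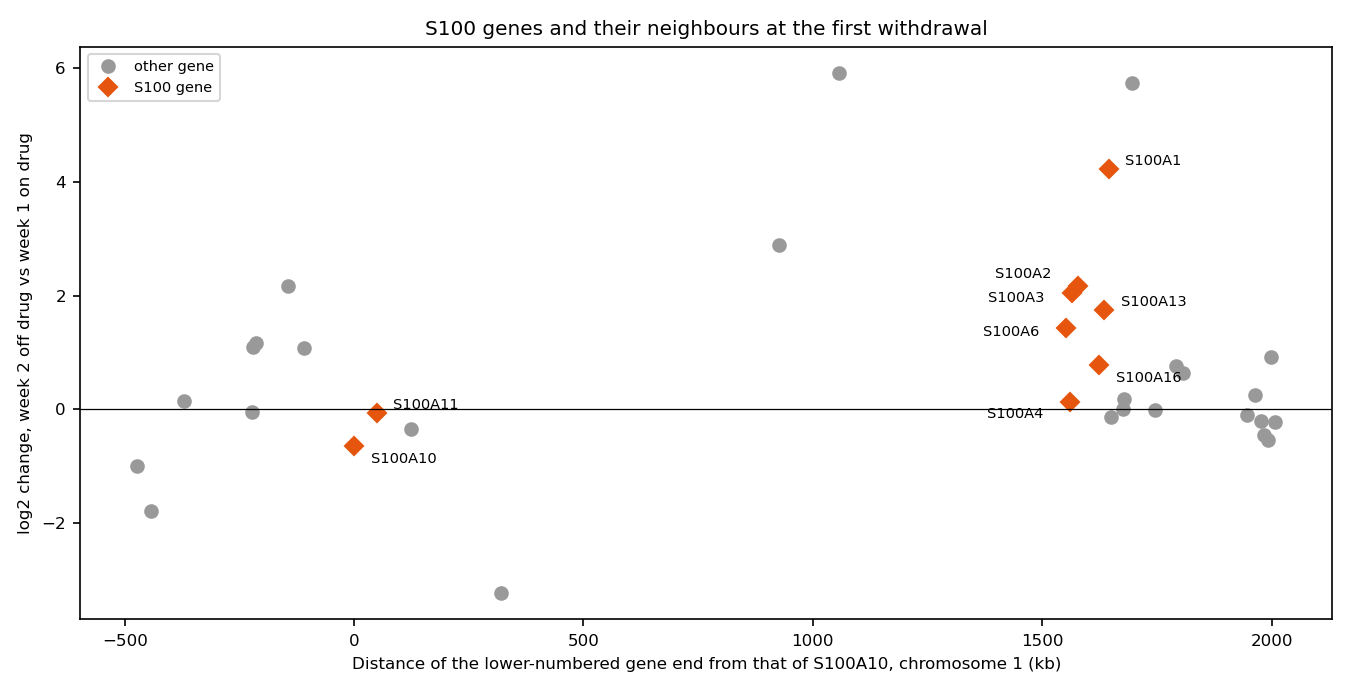
log2 change from week 1 on drug to week 2 off drug (vertical axis) against distance of a gene's lower-numbered end from that of S100A10 on chromosome 1 in kb (horizontal axis), for 9 S100 genes (orange) and 26 other genes (grey). Genes with 3 counts or fewer in the lower group, or that passed the count filter through off-drug libraries alone, are not drawn. The other genes run from -3.23 to 5.92, and S100A1 stands at 4.23.

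Return to drug at week 3 lowered 6 of the 10 genes and raised 2 relative to week 2 off, where 28.5% and 27.8% of all tested genes were called. S100A6 fell most, from 859, 807 and 576 CPM to 287, 249 and 219 CPM (log2 change -1.57 ± 0.14, adjusted p = 3.11e-11). S100A13 fell to 11.2, 12.4 and 9.42 CPM (log2 change -1.10 ± 0.14, adjusted p = 4.69e-08). S100A1 fell to 77.2, 66.1 and 62.0 CPM (log2 change -0.80 ± 0.14, adjusted p = 2.30e-05), which is still above every library outside the intermittent arm. S100A3, S100A2 and S100A16 fell by log2 changes of -0.91, -0.72 and -0.71. S100A4 rose by 1.10 ± 0.30 (adjusted p = 0.00237) and S100A10 by 0.68 ± 0.10 (adjusted p = 1.60e-06), S100A10 to 344, 300.1 and 303 CPM. The median log2 change was -0.71 over the 10 genes and 0.02 over all tested genes.

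At the same week, cells back on drug still differed from cells that had never left it. Of the 10 genes 7 were higher at week 3 on than at week 3 of continuous drug and none lower, where 14.0% and 14.3% of all tested genes were called. S100A1 stood at 5.26, 8.60 and 7.86 CPM in the continuous arm (log2 difference 3.22 ± 0.17, adjusted p = 1.72e-15). S100A2 stood at 7.50, 8.42 and 5.74 CPM against 0.857, 2.26 and 1.11 CPM (log2 difference 2.32 ± 0.24, adjusted p = 4.90e-09). In both genes the arms did not overlap. S100A13, S100A16, S100A6, S100A10 and S100A11 were higher by 0.91, 0.73, 0.71, 0.65 and 0.31, of which the S100A11 call was lost without the first library of week 3 on, as given above, and also without the first of week 3 continuous (adjusted p = 0.128). The summed fibroblast markers, another list that separates these groups, stood at 635 to 758 CPM at week 3 on and at 1663 to 1750 CPM in the continuous arm. Most of both sums was COL1A1 (means of 661 and 1606 CPM), and THY1 alone had a higher mean at week 3 on. The part of these markers in the S100 differences was not tested. S100A3, S100A4 and S100B were not called, with 95% intervals of -0.08 to 0.94, 0.15 to 1.26 and -0.28 to 0.11, where the S100A4 interval excludes 0 before adjustment (adjusted p = 0.0633). S100A3 was called higher without the second library of week 3 on (log2 difference 0.69, adjusted p = 0.0453). The median log2 difference was 0.71 over the 10 genes and 0.00 over all tested genes.

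The second exposure to drug was set against the first as the change from week 2 off to week 3 on minus the change from untreated to week 1. For 5 of the 10 genes the second change was lower than the first and for none higher, where 25.0% and 23.3% of all tested genes were called. S100A6 rose in the first exposure (0.96) and fell in the second (-1.57), a difference of -2.53 ± 0.19 (adjusted p = 2.16e-12). S100A2 showed the same pair of directions, 2.15 and -0.72, with a difference of -2.87 ± 0.37 (adjusted p = 1.09e-07). S100A10 rose in both, by 1.52 and 0.68, with a difference of -0.84 ± 0.15 (adjusted p = 1.56e-05). S100A13 and S100A11 differed by -1.29 and -0.98. The difference for S100A1 was -0.42 ± 0.23 and was not called (adjusted p = 0.141).

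The second withdrawal raised 7 of the 10 genes and lowered the other 3 relative to week 3 on, where 23.1% and 22.3% of all tested genes were called. S100A1 reached its highest level, 439.6, 645 and 352 CPM (log2 change 2.81 ± 0.15, adjusted p = 5.38e-16). S100A2 reached 16.4, 23.4 and 17.2 CPM (log2 change 1.39 ± 0.20, adjusted p = 6.56e-07) and S100A13 27.1, 34.2 and 23.5 CPM (log2 change 1.36 ± 0.14, adjusted p = 9.35e-10). S100A6 rose to 497, 605 and 488 CPM (log2 change 1.07 ± 0.14, adjusted p = 8.43e-08). S100A3 and S100A16 rose by 0.72 and 0.52. The S100A3 call was lost without the second library of week 3 on (log2 change 0.49, adjusted p = 0.106) or the second or the third of week 4 off (adjusted p = 0.0626 and 0.0553). S100B rose to 176, 170.2 and 175 CPM from 133, 113 and 136 CPM (log2 change 0.45 ± 0.10, adjusted p = 0.000345). S100A4, S100A10 and S100A11 fell by log2 changes of -0.85, -0.61 and -0.42. The S100A4 call was also lost without the third library of week 4 off (adjusted p = 0.0737). The summed fibroblast markers stood at 635 to 758 CPM at week 3 on and at 32.3 to 34.3 CPM at week 4 off. COL1A1 went from a mean of 661 to 4.95 CPM, and COL1A2, COL3A1, DCN and LUM were also lower. PDGFRB (9.10 to 20.6 CPM), PDGFRA (2.54 to 4.22 CPM) and THY1 were higher. The part of these markers was not tested here either.

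Against the continuous arm at week 4, week 4 off had 7 members higher and none lower, where 26.1% of all tested genes were called higher and 25.1% lower. S100A1 stood at 10.1 and 10.6 CPM in the 2 continuous libraries, and the log2 difference was 5.53 ± 0.21 (46.1-fold, adjusted p = 1.14e-19). S100A2 differed by 3.85 ± 0.28 (adjusted p = 6.54e-13), S100A13 by 2.21 ± 0.17 (adjusted p = 1.67e-12) and S100A6 by 1.57 ± 0.16 (adjusted p = 8.65e-10). S100B was among the 7, at 0.81 ± 0.11 (adjusted p = 4.55e-07). S100A4, S100A10 and S100A11 were not called, with log2 differences of -0.51, 0.19 and -0.24. Their libraries did not overlap between the 2 groups, for S100A10 only by 185.79 against 185.68 CPM. How many of all tested genes had no overlap was not computed. S100A10 was called higher without the third library of week 4 off (log2 difference 0.30, adjusted p = 0.0411). The median log2 difference was 0.98 over the 10 genes and -0.01 over all tested genes.

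The 2 off-drug groups were also compared with each other. Week 4 off had 3 members higher and 1 lower than week 2 off, where 14.6% and 14.4% of all tested genes were called. S100A1 was higher by 2.01 ± 0.15 (adjusted p = 7.72e-12) and S100A2 by 0.67 ± 0.19 (adjusted p = 0.00773), a call lost without the second week 4 off library (adjusted p = 0.0767). S100B was higher by 0.66 ± 0.10 (adjusted p = 4.87e-06), and its libraries did not overlap between the weeks. S100A6 was lower by log2 -0.50 ± 0.13 (adjusted p = 0.00504) with overlapping libraries, and the call was lost without the first week 2 off library (adjusted p = 0.0513). Set against the first withdrawal, the change at the second was called lower for 2 members and higher for 1, where 9.50% and 7.60% of all tested genes were called. S100A1 changed by 4.23 in the first and by 2.81 in the second, starting from 6.31 and 68.4 CPM. S100B fell at the first withdrawal and rose at the second, with a difference of 0.98 ± 0.14 (adjusted p = 3.93e-06).

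**Figure D5:**
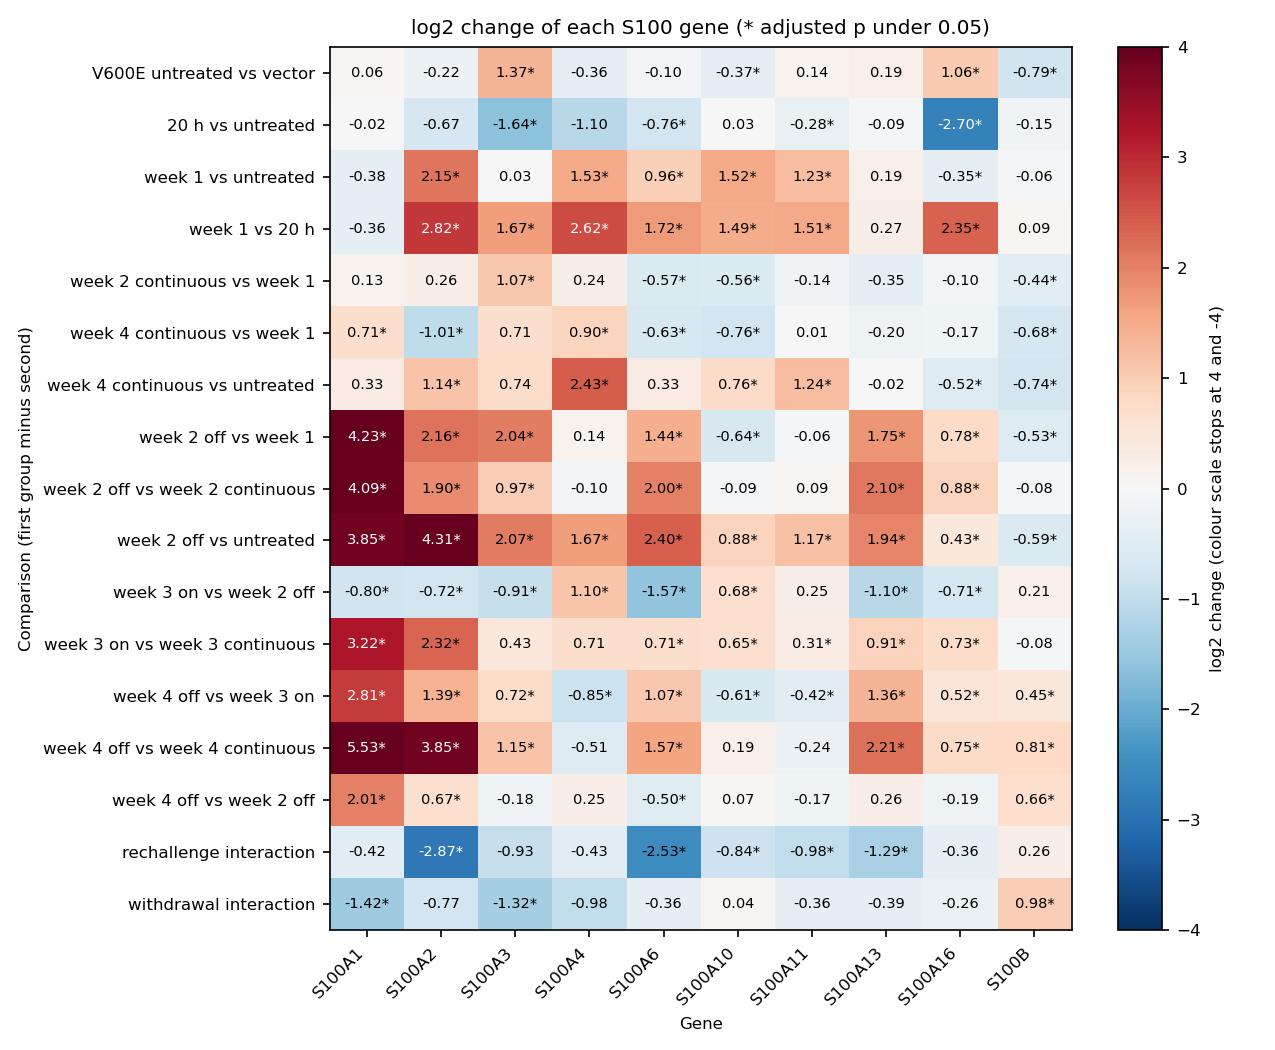
log2 change of each of the 10 S100 genes (columns) in each of the 17 comparisons (lines), with an asterisk where the adjusted p was under 0.05, in colours from blue (lower in the first-named group) to red (higher). The last 2 lines are the second exposure minus the first (rechallenge) and the second withdrawal minus the first. In the 4 comparisons of an off-drug group with week 1, week 3 on or the continuous arm, S100A1, S100A2, S100A3, S100A6, S100A13 and S100A16 are red throughout.

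For each gene the 10 groups were put in order of their mean level. For S100A1, week 4 off (479 CPM), week 2 off (119 CPM), week 3 on (68.4 CPM) and week 4 continuous (10.4 CPM) followed each other without overlap of their libraries. The other 6 groups lay between 6.31 and 8.22 CPM, and each overlapped the next in the order. S100A2 had the same first 3 groups, at 19.0, 11.9 and 7.22 CPM, again without overlap. Neighbouring groups were free of overlap at 2 of 9 steps for S100A11, S100A13 and S100B, 4 for S100A1 and S100A2, and 3 for the other 5 genes. Sorting by the means themselves, with few libraries per group, can give such steps for genes at large. Their number over all tested genes was not computed, so these counts do not set the S100 genes apart.

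The genes whose group means ran most like 4 of the members were looked up over the 10 group means of log2 CPM, which share libraries, scaling and depth with the members. These 4 members were those with the widest range. For each, the 3 genes with the highest correlation among 10695 were taken, and a search of that size over 10 means can give a high correlation by itself. For S100A1 they were KRT75, a hair follicle keratin (Pearson r = 0.97), S100A13 (0.96) and LCN1, a tear lipocalin (0.96). Over all libraries KRT75 and LCN1 reached the mean of 5 CPM needed to enter through the 2 off-drug groups, where S100A1 is high, so their likeness was largely fixed by that limit. KRT75 stood at 0.00962 CPM at week 1, 15.5 CPM at week 2 off, 0.856 CPM at week 3 on and 32.8 CPM at week 4 off. For S100A2 they were DUSP11, DNTTIP1 and CSGALNACT2 (0.98, 0.98 and 0.97), and for S100A3 SLC6A17, RAB13 and NUCB2 (0.98, 0.98 and 0.97). For S100A4 they were PAF1, SDC2 and LAMA3 (0.98, 0.98 and 0.97). A correlation does not measure the size of a change. DUSP11 means ran from 14.6 to 24.2 CPM where S100A2 means ran from 0.368 to 19.0 CPM. PAF1 means ran from 53.0 to 81.2 CPM where S100A4 means ran from 0.126 to 1.87 CPM. SLC6A17 had a wider range, from 3.91 to 51.5 CPM. RAB13 is also one of the tested neighbours on chromosome 1.

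Other genes of the family were mostly silent. Of 11 further S100 genes, 7 had any count and 3 were tested (S100A5, S100A9 and S100P). S100A9, a subunit of calprotectin, stood at 2.39, 1.22 and 0.627 CPM at week 2 off and at 4.67, 8.24 and 5.20 CPM at week 4 off. In all other groups its mean was at or under 0.0483 CPM. Its partner S100A8 had up to 3 counts per library at week 2 off, 7 to 14 at week 4 off and 1 count in all other libraries together, and was not tested. S100A5 stood at means of 0.721 and 1.09 CPM in the off-drug groups. S100P stood at 0.617, 0.462 and 0.461 CPM at week 1 and at 0 counts in both off-drug groups. Since S100A8 and S100A9 are abundant in myeloid cells, markers of such cells are given beside them as group means. LYZ, the lysozyme gene, stood at 1.92 CPM in untreated cells, 0.134 CPM at week 1, 4.72 CPM at week 2 off and 9.31 CPM at week 4 off. PTPRC, the pan-leukocyte marker, stood at 0.283, 0.00962, 0.0709 and 0.205 CPM in these groups, and ITGAM, a myeloid integrin, at 0.0652, 0.00962, 0.127 and 0.0662 CPM. Endothelial markers summed to 8.75 to 10.9 CPM in untreated cells, 0.694 to 1.32 CPM at week 1, 17.9 to 20.6 CPM at week 2 off and 28.1 to 30.1 CPM at week 4 off, with CDH5 at 0 in all but the untreated group. KDR made up most of the sum in untreated cells (mean 9.58 CPM), at week 2 off (14.2 CPM) and at week 4 off (23.5 CPM). Its mean at week 1 was 0.360 CPM. VWF had a higher mean at week 1 than in untreated cells (0.531 against 0.394 CPM), and PECAM1 stood at 0.0578 against 0.0631 CPM. Both VWF and PECAM1 had higher means in the off-drug groups than at week 1. The part of the myeloid or the endothelial markers in the S100 changes was not tested.

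Partners and receptors of S100 proteins formed a list of 23 genes, all tested. At the first withdrawal 8 were higher and 10 lower, where 27.7% and 26.8% of all tested genes were called. The median log2 change was -0.03 over the partners and -0.01 over all tested genes. FGF1, the growth factor exported together with S100A13, stood at 19.3 CPM at week 1, 169 CPM at week 2 off, 20.5 CPM at week 3 on and 98.6 CPM at week 4 off. Its log2 change at the first withdrawal was 3.13 ± 0.11 (adjusted p = 9.47e-21). SYT1, the synaptotagmin of that export complex, rose from 0.453 CPM in untreated cells to 8.84 CPM at week 1 (log2 change 4.25 ± 0.19, adjusted p = 1.68e-18). TLR4, a receptor for calprotectin, went from 21.9 to 176 CPM at the first withdrawal (log2 change 3.01 ± 0.13, adjusted p = 9.54e-19), and AGER, the receptor for advanced glycation end products, stayed under 6.8 CPM in every group mean.

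The partners of S100A10, S100A11 and S100A4 were among the genes that moved with drug. ANXA2, the annexin bound by S100A10, went from 321 CPM in untreated cells to 1253 CPM at 20 hours (log2 change 1.96 ± 0.08, adjusted p = 1.27e-18) and 3024 CPM at week 1 (log2 change 3.24 ± 0.09, adjusted p = 1.41e-23). At 20 hours S100A10 itself was not called. ANXA1, the partner of S100A11, went from 852 CPM at week 1 to 265 CPM at week 2 off (log2 change -1.68 ± 0.08, adjusted p = 4.54e-17), while S100A11 was not called. MYH9, the myosin bound by S100A4, went from 1773 to 577 CPM in the same comparison (log2 change -1.62 ± 0.08, adjusted p = 1.65e-16), returned to 2351 CPM at week 3 on and stood at 591 CPM at week 4 off. CACYBP, the partner of S100A6, fell at 20 hours from 93.2 to 33.8 CPM (log2 change -1.47 ± 0.10, adjusted p = 1.23e-13). Over the 23 partners, 9 were higher and 8 lower at 20 hours, and 9 were higher and 6 lower at week 1 than in untreated cells, where 53.7% and 54.2% of all tested genes were called in either direction.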

How the data were processed

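The deposited table holds whole-number read counts per gene as the authors made them, and its values are not normalized. The submitters' processing notes name Trimmomatic 0.32, HISAT2 2.0.3, SAMtools 0.1.18, HTSeq 0.6.1 and the genome build GRCh38. The annotation release and the strand setting are not given in the sources used here. All 29 sample columns were mapped by week, schedule and replicate number, and 0 value columns were left over.

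Tests used edgeR 4.0.16 (R 4.3.3) after scaling by TMM and filterByExpr with a minimum count of 10, in 1 quasi-likelihood fit of all groups, which share an estimate of spread. p-values were adjusted by Benjamini-Hochberg over 20494 genes in each of 17 comparisons, and an SE is the size of a log2 change divided by the root of its F value. The S100 genes and the lists of partners, neighbours and markers were chosen with earlier results of these data known. Every S100 gene is named. Partners and neighbours are named by the largest changes past the threshold with a group mean of at least 5 CPM, except that later levels of genes so named, and the other S100 genes, are given as values. Intervals are 95%, from the SE. Exon lengths and positions come from GENCODE 29, and likeness used log2 CPM with a prior count of 2. Depth was 22934039 to 35804978 counts, and sequencing counts carry no molecular identifiers, so counting errors cover reads only. Alternatives tried were a fit of the compared groups alone, DESeq2 1.42.0, the RLE method of scaling, testing without the filter, a replicate term, leaving out each library, and leaving out the 2 libraries that stood apart. The procedure was tested on simulated data. Figures were drawn with matplotlib 3.10.9.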

Additional observations from a re-analysis of the deposited data

Results flagged for a closer look

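For 8 results, 2 changes of the same kind differed by a test of the difference itself (interaction terms in edgeR, adjusted over all tested genes).

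The change on the second exposure to drug (week 2 off to week 3 on) was lower than on the first (untreated to week 1) for 5 genes. The differences on the log2 scale were -2.87 ± 0.37 for S100A2 (SE, adjusted p = 1.09e-07), -2.53 ± 0.19 for S100A6 (adjusted p = 2.16e-12), -1.29 ± 0.21 for S100A13 (adjusted p = 4.10e-06), -0.98 ± 0.16 for S100A11 (adjusted p = 4.73e-06) and -0.84 ± 0.15 for S100A10 (adjusted p = 1.56e-05). The exposures differed in their starting cells, since week 2 off followed a week on drug and a week off it.

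The change on the second withdrawal (week 3 on to week 4 off) was lower than on the first (week 1 to week 2 off) for S100A1, by a log2 difference of -1.42 ± 0.22 (adjusted p = 1.25e-05), and for S100A3, by -1.32 ± 0.36 (adjusted p = 0.00992). It was higher for S100B, by 0.98 ± 0.14 (adjusted p = 3.93e-06).

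No group had 4 or more libraries, so single libraries were not tested as outliers.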

How the results depend on the processing

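Of 170 results (10 genes in 17 comparisons), 105 were called. Of these 93 kept their call under every alternative run, 12 lost it under at least 1 and 0 changed sign. Of the 65 results that were not called, 24 were called under at least 1 alternative and 19 changed sign under at least 1. The number of S100 genes called stayed within 1.5 times in every comparison except that of the 2 withdrawals, which had 5 (1 higher, 4 lower) without the count filter against 3. The cause was not tested. The S100A4 call between week 4 and week 1 of continuous drug was also lost without the filter (adjusted p = 0.063), and the S100A11 call between week 3 on and week 3 continuous with the compared groups alone (adjusted p = 0.0585).

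Same-numbered libraries did not deviate together: in 0 of 15 comparisons was every correlation of same-numbered libraries over 0.1 (range -0.21 to 0.11). Comparisons with week 4 continuous had 2 pairs and could not count, since 3 pairs were required. Their highest correlation was 0.0166. With the replicate number as a block the count of S100 genes called was 4 for BRAF-V600E against vector, 4 at 20 hours, 7 at week 1, 8 at the first withdrawal and 10 at the second, and S100A4 lost its call between week 4 and week 1 of continuous drug (log2 change 0.86, adjusted p = 0.051).

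Changes of sign, all in results that were not called, were as follows on the log2 scale. S100A13 between week 4 continuous and untreated was 0.010383 with RLE factors, 0.010377 with DESeq2 and 0.00286 with the compared groups alone. S100A10 at 20 hours was -0.000855 without the filter and -0.0225 with the compared groups alone, and S100A11 between week 4 continuous and week 1 was -0.00709 without the filter. Without the 2 libraries that stood apart, S100A4, S100A10 and S100B between week 2 off and week 2 continuous were 0.00698, 0.0280 and 0.0545. Leaving out each library in turn gave ranges that crossed 0: for BRAF-V600E against vector -0.207 to 0.0129 (S100A6) and -1.12 to 0.0985 (S100A4); at 20 hours -0.0517 to 0.114 (S100A10) and -0.0839 to 0.00356 (S100A1); at week 1 against untreated -0.0128 to 0.131 (S100A3) and -0.0831 to 0.00327 (S100B). Under continuous drug the ranges were -0.128 to 0.0464 (S100A13, week 4 against untreated), -0.0445 to 0.0584 (S100A11, week 4 against week 1) and -0.201 to 0.0127 (S100A16, week 2 against week 1). At week 2 off they were -0.0804 to 0.446 against week 1 (S100A4), and against week 2 continuous -0.00223 to 0.275 (S100A11), -0.301 to 0.0334 (S100A4), -0.16 to 0.0281 (S100A10) and -0.168 to 0.0545 (S100B). The others were -0.291 to 0.0293 (S100A3) and -0.000562 to 0.159 (S100A10) for week 4 off against week 2 off, -0.191 to 0.0201 (S100B, week 3 on against week 3 continuous), -1.21 to 0.00646 (S100A4, second against first exposure) and -0.0266 to 0.132 (S100A10, second against first withdrawal). Leaving out a week 4 continuous library left 1, whose spread was taken to be that of the other groups.

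Calls gained on leaving out 1 library, beside those in the report, were S100A3 (4 libraries, each in turn) and S100A16 (3) for the second against the first exposure, S100A2 (3) for the second against the first withdrawal, S100A11 (3) and S100B (1) for week 3 on against week 2 off, S100A3 (1) and S100A6 (1) for week 4 continuous against untreated, and S100A13 (1) for week 4 off against week 2 off. The other kinds of alternative gave further gains. Over alternatives of every kind, S100A6 was called in 5 of 10 and S100A3 in 4 of 10 for week 4 continuous against untreated. Among others, S100A1 was called in 3 of 11 for week 1 against untreated and S100B in 1 of 11 at 20 hours.

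Depth limits the lowest genes: S100A4 had 1 to 69 counts per library, S100A3 4 to 119 and S100A2 4 to 754.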
